A study of Mus musculus with 9 samples.

Results

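The genes described here are 10 genes of the cellular response to low oxygen, *Hif1a*, *Epas1*, *Egln1*, *Egln3*, *Vegfa*, *Vegfb*, *Adm*, *Slc2a1*, *Pdk1*, and *Bnip3*, out of 50559 genes listed for each library. They were chosen by gene symbol, with the changes of *Hif1a* and *Vegfa* in these same libraries already known. Their changes between the groups are therefore given as a description. P values of these genes enter only as calls past a threshold, and nothing is read from the counts of such calls. RNA-Seq was performed on CD45+CD11b+ cells, that is, leukocytes of the myeloid lineage, sorted from quadriceps of *mdx* mice. All mice carried the *mdx* mutation, which removes dystrophin and models Duchenne muscular dystrophy, and all were 4.5 weeks old. They received for 7 days vehicle (sucralose MediDrop in the drinking water), the mineralocorticoid receptor antagonist spironolactone, or the glucocorticoid prednisolone. Each group had 3 libraries, and each library was a pool of 3 pairs of quadriceps. The mice were of either sex, with fewer males in the prednisolone group than in the other groups. Live and dead cells were not separated at sorting.

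In cells with enough oxygen, prolyl hydroxylases mark the α subunits of hypoxia-inducible factor (HIF) for destruction, so that HIF activity is set largely at the protein level. When oxygen is low, the α subunits persist, pair with the β subunit, and bind a short core sequence near genes for glucose uptake, glycolysis, mitochondrial turnover, and vessel growth. In macrophages *Hif1a* is also induced by inflammatory signals, and *Vegfa* is a well-known product of macrophages in regenerating muscle. RNA-Seq measures the transcripts only, and in bulk RNA fewer cells of a type and less RNA per cell cannot be told apart.

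Counts on genes were 31469815 to 32943512 per library, and a level of 1 CPM (the count of a gene scaled to a common library size, with TMM factors) was 31.6 to 33.7 counts. The leukocyte gene *Ptprc* (545 to 660 CPM) and the CD11b gene *Itgam* (978 to 1486 CPM) were present in every library. Markers of cells outside the sort were also present. The summed level of 10 endothelial genes was 90.8 to 132 CPM in vehicle, 182 to 242 CPM in spironolactone, and 105 to 139 CPM in prednisolone libraries. The sum of 8 genes of neutrophils, which carry CD45 and CD11b as well, was 700 to 3022 CPM in vehicle, 1067 to 2179 CPM in spironolactone, and 834 to 1065 CPM in prednisolone libraries. The sum of 10 immediate early and heat shock genes, which also respond to tissue dissociation, was 7999 to 8398 CPM in vehicle, 6678 to 6939 CPM in spironolactone, and 4263 to 6107 CPM in prednisolone libraries.

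TPM correct the counts for gene length as well as library size. The length used was that of the exons of all annotated transcripts of a gene together. It was 8344 bases from 36 transcripts for *Hif1a* and 2689 bases from 1 transcript for *Egln3*. The order of genes and the size of ratios between genes thus also depend on the annotation. By this measure *Hif1a* was the most abundant of the 10 genes in vehicle libraries, at 99.8 ± 10.6 TPM (SD, n = 3). *Slc2a1* followed at 92.9 ± 9.84 TPM and *Vegfa* at 83.9 ± 13.4 TPM. The ranges of these 3 genes overlapped, so that their order in vehicle was within the spread between pools. *Vegfb* was next at 35.5 ± 8.41 TPM, and its highest vehicle library (45.1 TPM) was below the lowest for *Vegfa* (74.7 TPM). *Epas1* (17.9 ± 2.02 TPM) overlapped with both *Egln1* (17.9 ± 0.619 TPM) and *Bnip3* (16.1 ± 1.40 TPM). The lowest *Egln1* and the highest *Bnip3* library were both at 17.2 TPM. *Pdk1* (8.26 ± 2.39 TPM) and *Egln3* (7.28 ± 2.48 TPM) also overlapped, and *Adm* was lowest at 0.639 ± 0.162 TPM. With prednisolone, *Hif1a* (133 to 144 TPM) stood above every other of these genes in each library, whereas *Vegfa* (28.0 to 55.6 TPM) overlapped with *Vegfb* (31.6 to 37.4 TPM).

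**Figure D1:**
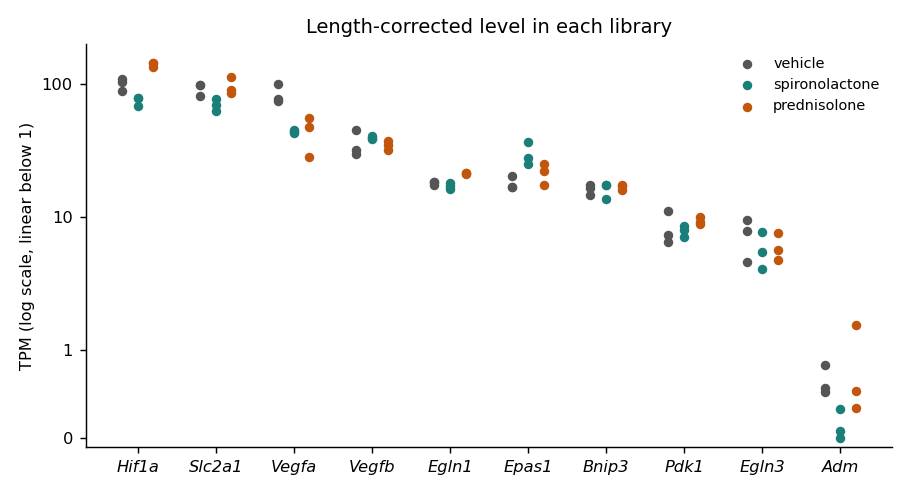
Length-corrected level (TPM, logarithmic axis that turns linear below 1) of the 10 genes, ordered by their vehicle mean, with 1 point per library, 3 libraries per group. *Hif1a*, *Slc2a1*, and *Vegfa* lie highest in vehicle, and *Vegfa* is lower in both drug groups, at 28.0 to 55.6 TPM against 74.7 to 99.3 TPM.

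*Hif1a* encodes HIF-1α, the α subunit that responds to oxygen in most cells, and lies at chr12:73948149-73996321 on the plus strand of GRCm39. Its level was 157, 211, and 202 CPM in vehicle replicates 1, 2, and 3. It was 143, 152, and 134 CPM with spironolactone and 263, 234, and 255 CPM with prednisolone. The 3 groups did not overlap, with spironolactone lowest and prednisolone highest, although vehicle replicate 1 lay only just above the spironolactone libraries. Group means were 189.9 ± 28.5 CPM, 143 ± 8.86 CPM, and 250.4 ± 15.2 CPM (SD, n = 3). The log2 fold change against vehicle was -0.41 ± 0.11 (SE) with spironolactone, or 0.753 times the vehicle level, and 0.40 ± 0.11 with prednisolone, or 1.32 times. Between the drugs, spironolactone against prednisolone, it was -0.81 ± 0.11. A gene on the opposite strand, *Gm15283*, shares exonic bases with *Hif1a*, and since the strand setting of the counting was not given in the sources used here, reads of the 2 genes may not be separable.

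The summed level of 5 monocyte genes was 957, 2077, and 1984 CPM in vehicle, 1303, 1494, and 1568 CPM with spironolactone, and 2189, 1692, and 2109 CPM with prednisolone. The drug groups did not overlap in this sum, and vehicle replicate 1 was low in it as in *Hif1a*. The libraries ranked as by *Hif1a* within vehicle and within prednisolone, but not within spironolactone. By gene, 0 of the 5 had a log2 fold change above 0 with spironolactone against vehicle, 2 with prednisolone against vehicle, and 3 with spironolactone against prednisolone. The sum of 8 F4/80-high macrophage genes was 2150 to 2585 CPM in vehicle and 2273 to 2780 CPM with spironolactone. With prednisolone it was 2217 to 2539 CPM, and all groups overlapped. Against vehicle, 3 of the 8 were above 0 with spironolactone and 7 with prednisolone, and 0 passed the test in edgeR. Between the drugs 2 were above 0 and 2 passed, where 5.17% of all genes did. The part of monocytes or of these macrophages in the *Hif1a* level was not tested.

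*Epas1* encodes HIF-2α, the second α subunit, which is abundant in endothelial cells and is also made by macrophages (chr17:87061087-87140838, plus strand). Its level was 20.1, 26.5, and 22.3 CPM in vehicle, 45.3, 32.6, and 37.0 CPM with spironolactone, and 30.8, 26.1, and 21.0 CPM with prednisolone. All spironolactone libraries were above all others, and prednisolone overlapped with vehicle. The log2 fold change was 0.73 ± 0.16 with spironolactone and 0.18 ± 0.16 with prednisolone, and it was 0.56 ± 0.16 between the drugs. Thus the α subunits differed in opposite directions with spironolactone. The ratio of *Hif1a* to *Epas1* in TPM was 5.29, 5.37, and 6.12 in vehicle, 2.14, 3.16, and 2.46 with spironolactone, and 5.78, 6.06, and 8.23 with prednisolone. Every spironolactone pool had a lower ratio than every other pool.

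Summed levels of markers of several other cell types were also higher with spironolactone than in vehicle. The summed level of skeletal muscle genes was 381 to 638 CPM against 204 to 309 CPM, that of erythroid genes 186 to 305 CPM against 70.2 to 135 CPM, and that of lymphocyte genes 7.21 to 10.5 CPM against 3.22 to 5.45 CPM. Mural genes were at 51.3 to 84.5 CPM against 39.8 to 48.1 CPM, and fibro-adipogenic genes overlapped, at 633 to 935 CPM against 486 to 670.3 CPM. With edgeR 0 genes of any of these lists passed the test with spironolactone against vehicle, where 0.0181% of all genes did. With prednisolone, mural genes were at 78.2 to 99.4 CPM, skeletal muscle genes at 315 to 489.9 CPM, and cycling genes at 538 to 595 CPM (273 to 442 CPM in vehicle), all above vehicle. In the mural list, *Cspg4* rose (log2 fold change 1.56 ± 0.16, adjusted P = 0.000495, edgeR), and *Rgs5* (-0.14 ± 0.27) and *Kcnj8* (-0.18 ± 0.76) were below 0. Lymphocyte genes, at 1.41 to 2.97 CPM, were below vehicle, and fibro-adipogenic genes, at 609 to 661 CPM, overlapped. Erythroid genes also overlapped with vehicle, at 37.1 to 79.7 CPM. With edgeR 1 mural, 1 skeletal muscle, and 2 cycling genes passed the test with prednisolone against vehicle, where 1.76% of all genes did. In the lymphocyte, fibro-adipogenic, and erythroid lists 0 genes passed. The part of these lists in the levels of *Hif1a*, *Vegfa*, and *Epas1* with either drug was not tested. *Epas1* was set beside the endothelial genes because endothelial cells are rich in it. All 10 endothelial genes had a log2 fold change above 0 with spironolactone against vehicle. With edgeR 0 of them passed the test in that comparison, and 6 passed between the drugs, where 5.17% of all genes did. Within each of the 3 groups, the libraries ranked by *Epas1* in the same order as by the summed endothelial level. As a share of that sum, *Epas1* was 20.1% to 22.2% in vehicle, 17.9% to 18.7% with spironolactone, and 19.9% to 22.2% with prednisolone, so that relative to the endothelial genes it was lowest with spironolactone. Endothelial genes were measured in every library, including *Pecam1* (14.5 to 42.9 CPM) and *Cdh5* (16.6 to 65.3 CPM). The sum also holds *Vwf*, at 38.4 to 59.4 CPM, so that the share of *Epas1* depends on the genes listed. This share is a description, and the part of endothelial cells in the *Epas1* level was not tested.

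**Figure D2:**
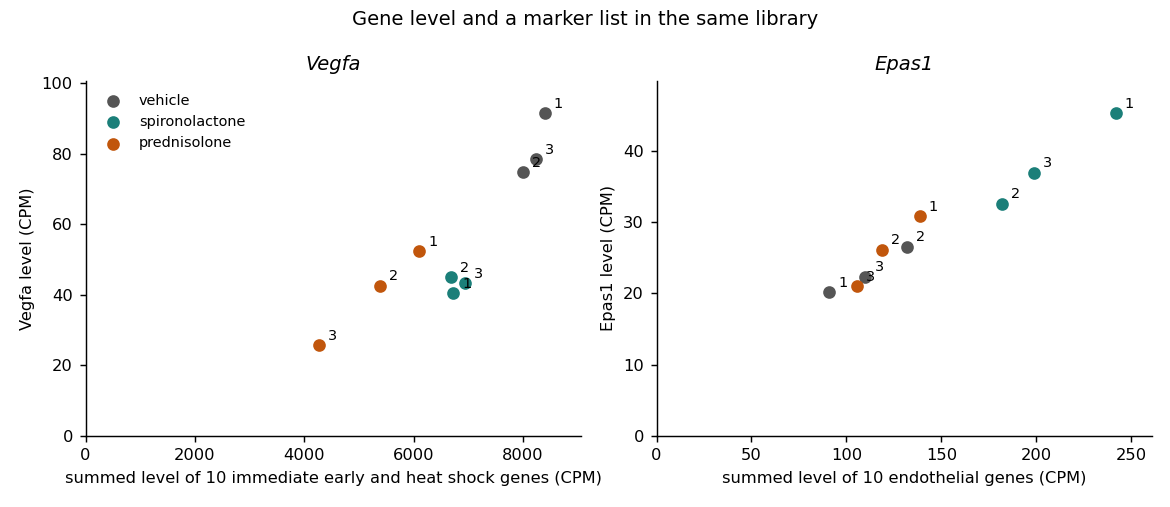
Level (CPM) of *Vegfa* against the summed level of 10 immediate early and heat shock genes (left) and of *Epas1* against the summed level of 10 endothelial genes (right), with 1 point per library, numbered by replicate. The spironolactone libraries are highest on both axes on the right (32.6 to 45.3 CPM of *Epas1*), and the vehicle libraries are highest on both axes on the left (74.7 to 91.4 CPM of *Vegfa*).

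Of the prolyl hydroxylases, *Egln1* had small differences and *Egln3* was measured with a wide error. *Egln1*, which encodes PHD2, the main oxygen sensor (chr8:125635308-125676865, minus strand), was at 35.0, 35.8, and 38.5 CPM in vehicle and 31.8, 37.3, and 36.0 CPM with spironolactone, which overlapped. It was at 41.7, 40.3, and 40.1 CPM with prednisolone, above every other library, with a log2 fold change of 0.16 ± 0.09 against vehicle. *Egln3*, which encodes PHD3 and is itself a HIF target (chr12:54225767-54250673, minus strand), was low, at 2.65 to 5.98 CPM in vehicle, 2.37 to 4.84 CPM with spironolactone, and 2.66 to 4.46 CPM with prednisolone. *Egln3* had a log2 fold change of -0.35 ± 0.33 with spironolactone and -0.38 ± 0.33 with prednisolone, and the ranges overlapped for all pairs of groups.

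*Vegfa*, the main vascular growth factor among HIF targets (chr17:46327919-46343309, minus strand), had the largest log2 difference from vehicle of the 9 tested genes with either drug. Its level was 91.4, 74.7, and 78.3 CPM in vehicle, 40.5, 45.0, and 43.2 CPM with spironolactone, and 52.3, 42.5, and 25.7 CPM with prednisolone. No drug library reached the lowest vehicle library. Group means were 81.5 ± 8.81 CPM, 42.9 ± 2.27 CPM, and 40.2 ± 13.5 CPM, and the prednisolone pools spread most. The log2 fold change was -0.93 ± 0.21 with spironolactone, or 0.526 times the vehicle level, and -1.02 ± 0.21 with prednisolone, or 0.493 times. Between the drugs the difference was 0.09 ± 0.21, and the groups overlapped. Both drug comparisons share the same vehicle libraries. The limit of *Hif1a* from a gene that shares exonic bases on the opposite strand also holds for *Vegfa* (*Gm65021*), *Egln1* (*Gm63997*), *Slc2a1* (*Gm12868*), *Bnip3* (*Gm45507*), and *Adm* (*Gm72687*).

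*Vegfa* and *Hif1a* therefore parted with prednisolone. The ratio of *Vegfa* to *Hif1a* in TPM was 1.13, 0.689, and 0.753 in vehicle, 0.549, 0.575, and 0.625 with spironolactone, and 0.386, 0.354, and 0.195 with prednisolone. The 3 groups did not overlap in this ratio, with prednisolone lowest. The immediate early and heat shock genes also differed with the drugs, with 8 of 10 below vehicle with spironolactone and 10 of 10 with prednisolone. With edgeR 0 and 5 of them passed the test, where 0.0181% and 1.76% of all genes did. *Vegfa* ranked the libraries in the order of their sum within vehicle and within prednisolone, but not within spironolactone. As a share of this sum, *Vegfa* was 0.934% to 1.09% in vehicle, 0.602% to 0.674% with spironolactone, and 0.602% to 0.856% with prednisolone. This share is a description, and the part of these genes, or of what moves them, in the *Vegfa* level was not tested.

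*Vegfb*, a related ligand of VEGF receptor 1 that is not a classical HIF target (chr19:6958447-6965127, minus strand), did not follow *Vegfa*. It was at 31.5, 23.9, and 22.7 CPM in vehicle, 28.9, 29.1, and 29.9 CPM with spironolactone, and 22.5, 23.7, and 25.9 CPM with prednisolone. The log2 fold change was 0.17 ± 0.12 and -0.11 ± 0.12 against vehicle, with overlap in both cases, and vehicle replicate 1 was above all other libraries. The ratio of *Vegfa* to *Vegfb* in TPM was 2.37 and 2.61 in vehicle replicates 2 and 3 and lower in replicate 1. It was 1.06 to 1.17 with spironolactone and 0.750 to 1.76 with prednisolone, below every vehicle library. *Adm*, which encodes the vasodilator peptide adrenomedullin (chr7:110226858-110229027, plus strand), was nearly absent. It had 6, 10, and 7 counts in vehicle, 0, 1, and 4 counts with spironolactone, and 4, 6, and 18 counts with prednisolone. It did not pass the filter on low counts and was not tested. The library with 0 counts allows up to 3 counts, or 0.0949 CPM.

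**Figure D3:**
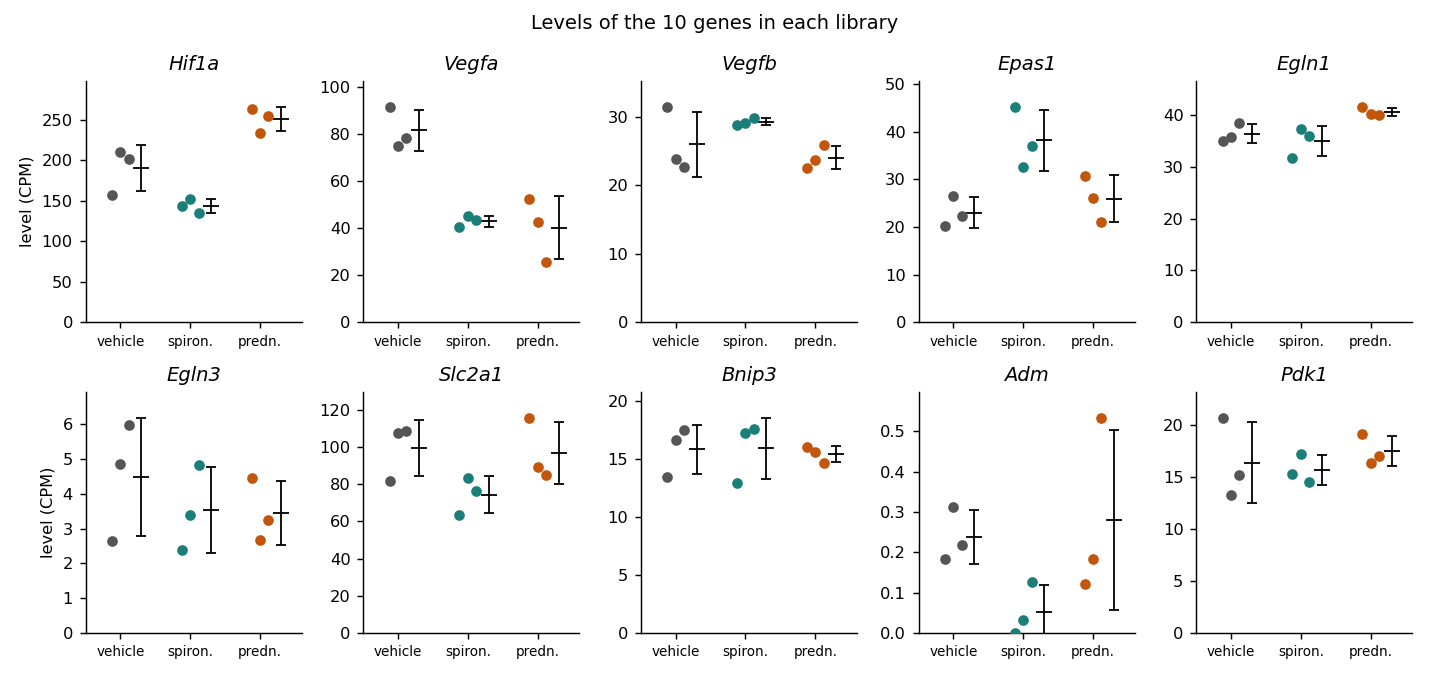
Level (CPM) of the 10 genes in each library, with a panel and an axis from 0 for each gene. Points are libraries in replicate order, and the bar beside them is the mean and SD of the group (n = 3). The groups do not overlap for *Hif1a*, both drug groups lie below vehicle for *Vegfa*, and spironolactone lies highest for *Epas1*.

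Among the metabolic targets, *Slc2a1*, the glucose transporter GLUT1 (chr4:118965908-118996365, plus strand), was at 82.0, 108, and 109 CPM in vehicle and 63.6, 83.4, and 76.2 CPM with spironolactone. These groups overlapped because vehicle replicate 1 was below spironolactone replicate 2. The log2 fold change with spironolactone was -0.42 ± 0.14. With prednisolone *Slc2a1* was at 116, 89.0, and 85.3 CPM, with a log2 fold change of -0.04 ± 0.14, and all prednisolone libraries were above all spironolactone libraries. Thus *Slc2a1* and *Hif1a* were both lower with spironolactone than with prednisolone in every library.

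*Pdk1*, a kinase that limits the entry of pyruvate into mitochondria (chr2:71703488-71734202, plus strand), was at 13.3 to 20.7 CPM in vehicle, 14.5 to 17.2 CPM with spironolactone, and 16.3 to 19.1 CPM with prednisolone. *Bnip3*, a receptor for the removal of mitochondria (chr7:138490690-138511253, minus strand), was at 13.4 to 17.5 CPM, 12.9 to 17.6 CPM, and 14.6 to 16.0 CPM. Both genes overlapped in all pairs of groups. The log2 fold change of *Bnip3* was 0.01 ± 0.14 with spironolactone and -0.04 ± 0.14 with prednisolone, and that of *Pdk1* was -0.06 ± 0.15 and 0.10 ± 0.15. With these errors, moderate changes of either gene cannot be told from none.

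**Figure D4:**
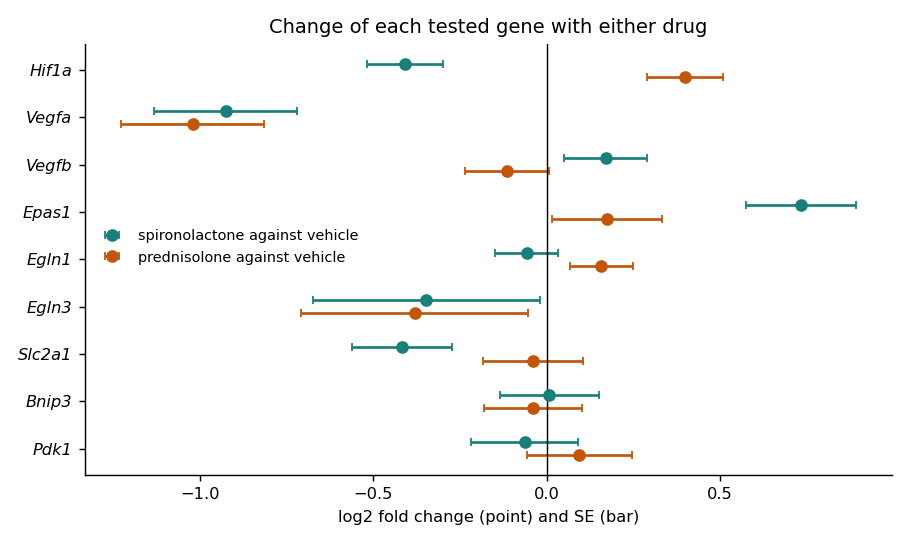
Log2 fold change against vehicle (points) with SE (bars) from edgeR for the 9 genes that passed the filter on low counts. *Vegfa* is below 0 with both drugs (-0.93 and -1.02), and *Hif1a* lies on opposite sides of 0 (-0.41 and 0.40).

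Over the whole set, 9 of the 10 genes passed the filter, and *Adm* did not. With a threshold of an adjusted P of 0.05 in edgeR, 0 of these 9 were past it with spironolactone against vehicle, where 0.0181% of all 16618 genes were, 4 had an unadjusted P under 0.05 (9.29% of all genes), and DESeq2 counted 3 (1.92% of all genes with an adjusted P) and limma-voom 0. With prednisolone against vehicle 1 of 9 was past it, *Vegfa*, where 1.76% of all genes were. This count was 0 without any single vehicle or spironolactone library or without prednisolone replicate 2. With spironolactone against prednisolone 1 of 9 was past it, *Hif1a*, where 5.17% of all genes were, and this held without each of the 9 libraries in turn. Without vehicle replicate 1 that count was 2, with *Epas1* beside *Hif1a*. In the comparison of spironolactone with vehicle, the count was 1 without vehicle replicate 1 (*Hif1a*) and 1 without prednisolone replicate 3 (*Vegfa*). Groups did not overlap for 3 of 9 with spironolactone against vehicle (13.5% of all genes), 3 of 9 with prednisolone against vehicle (19.7%), and 5 of 9 between the drugs (30.3%). The median log2 fold change of the 9 genes was -0.06, -0.04, and 0.03 in these comparisons. Since the choice of genes used these contrasts, nothing is read from the counts.

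The start regions were searched for the short core to which HIF binds. In RefSeq promoter windows of 300 bases on GRCm38.p6 (250 before and 50 after a start), the core ACGTG or GCGTG was searched on both strands. It was found in a window of all 9 genes that have one, and in 9 of their 11 windows, against 43.8% of all 32851 windows. There was no window for *Epas1*. The window at the 5′ start of *Vegfa* and the second window of *Pdk1* held no such letters, and the matches of *Vegfa* were in a second window that lies inside the gene. The following stretches show the cores of *Hif1a* and *Slc2a1*, both lower with spironolactone than with prednisolone, and of *Bnip3*, which had the most cores and a log2 fold change near 0. They read 5′ to 3′ in the direction of the gene and end before the start. Capitals mark the core, written CACGT or CACGC where it is on the other strand, and CACGTG holds it on both strands, as overlapping matches.
Hif1a, window chr12:73907617-73907916, plus strand: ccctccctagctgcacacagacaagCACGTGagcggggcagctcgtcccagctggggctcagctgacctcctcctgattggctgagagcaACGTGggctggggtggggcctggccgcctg
Slc2a1, window chr4:119108495-119108794, plus strand: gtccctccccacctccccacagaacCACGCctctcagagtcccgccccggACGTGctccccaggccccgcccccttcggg
Bnip3, window chr7:138909457-138909756, minus strand: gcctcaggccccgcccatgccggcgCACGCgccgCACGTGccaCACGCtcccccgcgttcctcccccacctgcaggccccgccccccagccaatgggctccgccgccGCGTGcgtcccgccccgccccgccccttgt
A match is a description of letters and not of binding. There were 3 matches in *Hif1a*, 2 in *Slc2a1*, and 5 in *Bnip3*.

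The genes whose pattern over the 9 libraries was most like that of *Hif1a*, by the root mean square (RMS) difference of centred log2 CPM among 8652 genes, were *Cd44*, a hyaluronan receptor (0.103), *Agpat4* (0.105), *F13a1*, a coagulation factor subunit made by macrophages (0.106), *Slc12a4* (0.117), and *Pde8a* (0.127). The median of all candidates was 0.370. *F13a1* had group means of 512 CPM in vehicle, 389 CPM with spironolactone, and 717 CPM with prednisolone. For *Vegfa* they were *Ifrd1* (0.0833), the chemokine receptor-like gene *Ccrl2* (0.135), the neutrophil chemokine *Cxcl1* (0.197), the kinase *Pim3* (0.200), and the clock gene *Per1* (0.202), with a median of 0.556. *Ifrd1* had group means of 252, 137, and 119 CPM. *Hif1a* and *Vegfa* themselves differed by 0.689, more than the median candidate differed from either. The closest pair among the 9 tested genes was *Bnip3* and *Egln1*, at 0.145.

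The wider pathway was described with 78 further genes in 5 lists, of which 74 were tested. All 5 lists were written with earlier results of these data known, so that the tests of their genes are not independent evidence. With spironolactone against vehicle 0 of 74 passed the test in edgeR, 14 had an unadjusted P under 0.05 (9.29% of all genes), and DESeq2 counted 3 (1.92% of all genes) and limma-voom 0. With prednisolone 2 of 74 passed, of which 1 rose and 1 fell, where 1.76% of all genes passed. Spironolactone against prednisolone gave 3 of 74, with 1 higher and 2 lower, where 5.17% of all genes passed. Both edgeR counts are near the share of all genes. With prednisolone against vehicle, 17 of 74 had an unadjusted P under 0.05 (14.2% of all genes), and DESeq2 counted 7 (5.29% of all genes). Both of these lie above the share of all genes, as do the unadjusted and DESeq2 counts with spironolactone against vehicle. With prednisolone limma-voom counted 2. The median log2 fold change over the 74 genes was -0.04, -0.01, and 0.03 in these comparisons, close to that of all genes (9.04e-05, -0.01, and 0.03).

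Among 18 genes of glucose uptake and glycolysis, 15 were below 0 with each drug, with medians of -0.08 and -0.07. Of all 16618 genes, 8307 and 8668 were below 0. With edgeR 0 and 1 of the 18 passed the test, where 0.0181% and 1.76% of all genes did. An unadjusted P under 0.05 was reached by 2 and 5, where 9.29% and 14.2% of all genes reached it. In this list and the next ones, both drugs were set against the same vehicle libraries. *Pfkp*, a phosphofructokinase, rose with prednisolone, from 107 ± 2.56 to 138 ± 9.09 CPM (log2 fold change 0.36 ± 0.08, adjusted P = 0.0377, edgeR), and was lower with spironolactone than with prednisolone (-0.44 ± 0.08, adjusted P = 0.00933, edgeR). The rise with prednisolone was not past the threshold with edgeR on the 2 groups compared, nor without vehicle replicate 2 or 3, spironolactone replicate 2 or 3, or any single prednisolone library. *Pfkfb3*, which sets the rate of glycolysis, was at 128 ± 17.0 CPM in vehicle, 96.1 ± 14.6 CPM with spironolactone, and 86.0 ± 19.4 CPM with prednisolone (-0.57 ± 0.16, adjusted P = 0.107, edgeR). *Pfkfb3* with prednisolone was called by DESeq2, with no filter, with the replicate block, and without prednisolone replicate 1. *Hk2*, a hexokinase, was at 62.8, 52.8, and 51.4 CPM. Of these genes, *Pfkp* had means in the group order of *Hif1a*, lowest with spironolactone and highest with prednisolone. Its log2 fold change with spironolactone against vehicle was only -0.08 ± 0.08. *Pfkfb3* and *Hk2*, like *Vegfa*, had lower means with both drugs than in vehicle. Between the drugs they differed by 0.16 ± 0.16 and 0.04 ± 0.11, so that the order of the drugs was within the error.

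Among 14 genes of mitochondria, lipid, and stress, 10 were below 0 with each drug. With edgeR 0 of 14 passed the test with either drug, with 5 and 4 at an unadjusted P under 0.05, where 9.29% and 14.2% of all genes were. DESeq2, which called 1.92% and 5.29% of all genes, called *Hilpda* and *Bhlhe40* with spironolactone and *Hilpda* with prednisolone, and limma-voom called 0. *Hilpda*, a lipid droplet protein, was at 28.9 ± 5.81 CPM in vehicle, 16.8 ± 0.899 CPM with spironolactone, and 18.8 ± 4.31 CPM with prednisolone. Its log2 fold changes were -0.79 ± 0.17 (adjusted P = 0.129, edgeR) and -0.62 ± 0.17 (adjusted P = 0.0917, edgeR), with no overlap with vehicle. *Bhlhe40*, a transcriptional repressor, was at 247, 177, and 220 CPM, with -0.48 ± 0.11 for spironolactone (adjusted P = 0.129, edgeR). The histone demethylase *Kdm3a* was at 55.4, 47.1, and 47.6 CPM, and *Ddit4*, an inhibitor of mTOR, at 12.9, 9.57, and 8.29 CPM.

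Among 11 partners of VEGF and adrenomedullin, 8 were above 0 with spironolactone and 10 with prednisolone, with medians of 0.67 and 0.50. These medians include 4 genes near the floor, *Vegfc*, *Vegfd*, *Pgf*, and *Ramp3*, at 0.174 to 0.609 CPM in vehicle, of which *Pgf* sets the prednisolone median. With edgeR 0 of 11 passed the test against vehicle with either drug, with 3 and 2 at an unadjusted P under 0.05, against the same 9.29% and 14.2% of all genes. DESeq2 called *Ramp2* with spironolactone and *Flt1* and *Nrp2* with prednisolone, and limma-voom called 0. *Flt1*, VEGF receptor 1, was at 15.6, 24.7, and 24.5 CPM, with log2 fold changes of 0.67 ± 0.20 and 0.66 ± 0.20 (adjusted P = 0.272 and 0.138, edgeR). *Ramp2*, part of the adrenomedullin receptor, was at 4.15 ± 1.54, 9.37 ± 2.48, and 4.70 ± 0.405 CPM. Its log2 fold change with spironolactone was 1.18 ± 0.27 (adjusted P = 0.141, edgeR), and it was higher with spironolactone than with prednisolone (0.99 ± 0.27, adjusted P = 0.0499, edgeR). The call of *Ramp2* was lost in 12 of 19 alternatives, namely limma-voom, RLE scaling, library totals, robust=FALSE, the replicate block, and the fits without vehicle replicate 2 or any single spironolactone or prednisolone library. *Nrp2*, a VEGF co-receptor, was at 137 ± 28.6, 127 ± 9.87, and 195 ± 11.6 CPM, with 0.51 ± 0.13 for prednisolone against vehicle (adjusted P = 0.0611, edgeR), and was lower with spironolactone than with prednisolone (-0.63 ± 0.13, adjusted P = 0.0145, edgeR), a call lost without spironolactone replicate 3 or prednisolone replicate 1. *Calcrl*, the adrenomedullin receptor, was at 25.5, 23.0, and 33.9 CPM. Several of these receptors are made by endothelial cells, whose summed level also differed between the groups (182 to 242 CPM with spironolactone against 90.8 to 132 CPM in vehicle). With prednisolone that sum was 105 to 139 CPM and overlapped with vehicle. *Flt1* was at 22.8 to 26.2 CPM with prednisolone and 19.8 to 33.7 CPM with spironolactone, and without spironolactone replicate 1 its log2 fold change against vehicle was 0.38 with spironolactone. The part of endothelial cells in these values was not tested.

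**Figure D5:**
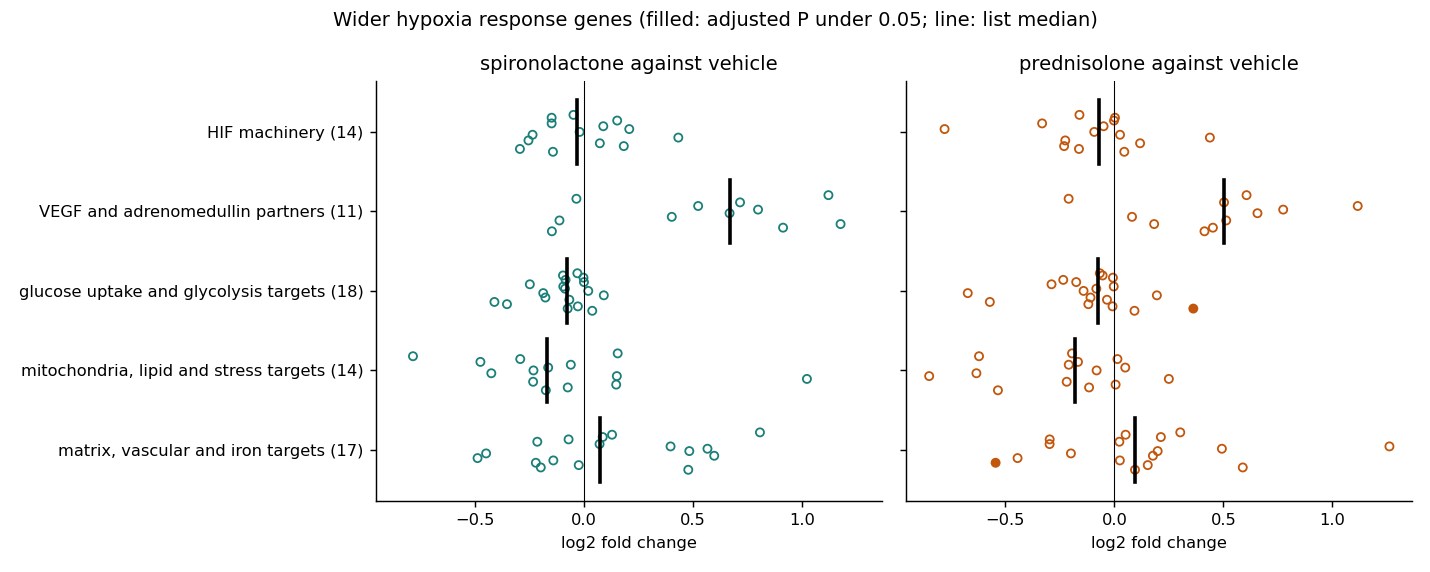
Log2 fold change against vehicle of the 74 tested genes of 5 hypoxia response lists (number tested in brackets), with filled points for an adjusted P under 0.05 in edgeR and a bar at the median of the list. Medians of the VEGF and adrenomedullin partners lie at 0.67 and 0.50 (4 of these 11 genes are under 1 CPM in vehicle) and those of the other lists between -0.18 and 0.09.

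In the HIF machinery, 8 of 14 genes were below 0 with spironolactone and 9 of 14 with prednisolone. With edgeR 0 of 14 passed the test with either drug, with 1 and 1 at an unadjusted P under 0.05, which is no more than the 9.29% and 14.2% of all genes. DESeq2 called 0 with spironolactone and *Cited2* with prednisolone, and limma-voom called 0. *Cited2*, which competes with HIF for its coactivator, was at 111, 99.8, and 88.0 CPM (-0.33 ± 0.09 with prednisolone, adjusted P = 0.0832, edgeR). *Hif1an*, the asparagine hydroxylase that blocks HIF activity, was at 26.2, 27.5, and 28.4 CPM, and the ubiquitin ligase *Siah2* at 26.0, 21.8, and 22.3 CPM. Among 17 genes of matrix, vessels, and iron, *Cxcr4*, the receptor of CXCL12, fell with prednisolone, from 339.8 ± 9.61 to 233 ± 14.8 CPM (-0.54 ± 0.10, adjusted P = 0.0130, edgeR). With spironolactone it was at 291 ± 32.6 CPM (-0.22 ± 0.10, adjusted P = 0.508, edgeR). The call with prednisolone was lost without prednisolone replicate 1 or 2. *Lox*, a collagen cross-linking enzyme, was at 12.1, 10.6, and 18.2 CPM, *Angptl4* at 23.1, 32.1, and 24.6 CPM, *P4ha1* at 77.9, 70.6, and 79.2 CPM, and *Mif* at 104, 109, and 84.6 CPM.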

How the data were processed

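The authors deposited whole-number counts per gene for each of the 9 libraries, made with HISAT2 2.2.1 on mm39 and HTSeq 0.11.3 per the labels. The paper counted reads on an annotation matched to UCSC mm39. The strand setting and the release of that annotation were not given in the sources used here. Deposited DESeq2 1.32.0 comparisons were not used. Lines that name no gene (17.2% to 21.8% of counts) were left out. The versions were edgeR 4.0.16, DESeq2 1.42.0, and limma 3.58.1 in R 4.3.3. Genes passing filterByExpr (minimum count 10, total 15; 16618 genes) were tested with the edgeR quasi-likelihood test on TMM-scaled libraries (robust). The 9 libraries shared a single two-sided model. P values were adjusted by the Benjamini-Hochberg method across the 16618 genes, with 0.05 as threshold. The biological coefficient of variation was 0.170. Lengths for TPM (40303 symbols, exons of all transcripts of a gene merged) and positions are from GENCODE on GRCm39, and promoter windows from RefSeq on GRCm38.p6.

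The 10 genes, the 5 lists, and the markers were chosen with earlier results of these data known. Pathway genes were named if past the threshold in any comparison, or if among the 3 largest drug changes of a list with a mean of at least 10 CPM and no overlap with vehicle. Pattern likeness used log2 CPM with a prior count of 2 and genes of at least 10 CPM. The tools were tested on simulated data. Alternatives were DESeq2, limma-voom, 2-group fits, other normalizations, filters, and thresholds, robust=FALSE, a replicate block, and leaving out each library. Per the paper, each biological replicate was pooled from 3 pairs of quadriceps, so P values measure the spread between pools. The limit given for a count of 0 covers counting error only.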

Additional observations from a re-analysis of the deposited data

How the results depend on the processing

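The log2 fold changes of the 9 tested genes stayed within 1 SD of the replicates in 513 of 513 alternative values. Of these, 21, of genes near 0, had the other sign. The 1 SD bound is wide for such alternatives. Setting robust=FALSE leaves the fold changes as they are, and leaving out a library of the group not compared hardly moves them. Leaving out a library of a compared group also shifts its mean by less than this SD. Nothing is therefore read from the 513 of 513. Counts past the threshold moved more. The 10 genes gave, with spironolactone against vehicle (0), 3 in DESeq2, 1 with edgeR on the 2 groups, 4 with no filter, and 0 to 1 without single libraries. With prednisolone against vehicle (1), they gave 2 in DESeq2, 0 on the 2 groups, 2 with no filter, 0 at a threshold of 0.01, 2 at 0.1, and 0 to 1 without single libraries. With spironolactone against prednisolone (1), they gave 2 in DESeq2, 2 on the 2 groups, 3 with no filter, 2 at 0.1, and 1 to 2 without single libraries. The pathway genes gave, with spironolactone against vehicle (0), 3 in DESeq2, 9 with no filter, and 0 to 0 without single libraries. With prednisolone against vehicle (2), they gave 7 in DESeq2, 11 with no filter, 0 at 0.01, 5 at 0.1, and 0 to 7 without single libraries. With spironolactone against prednisolone (3), they gave 6 in DESeq2, 7 on the 2 groups, 10 with no filter, 1 at 0.01, 7 at 0.1, and 1 to 9 without single libraries. The cause was not tested. Against vehicle, DESeq2 called 1.92% of all genes with an adjusted P for spironolactone and 5.29% for prednisolone. For the other alternative settings the share of all genes is not given, so nothing is read from these counts.

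With the replicate number as a block, the 10 genes gave 0, 1, and 2 calls and the pathway genes 0, 4, and 3 in these comparisons. Deviations of libraries that share a number correlated at -0.04 to 0.15, and those of other libraries at -0.17 to 0.04. The highest values, 0.15 (vehicle 3 with spironolactone 3) and 0.12 (vehicle 1 with spironolactone 1), were of libraries that share a number. The numbers were not taken as a pairing in the main fit, and these values do not settle whether they mark one. Few pools and low counts (*Adm*, *Egln3*) limit what can be detected. The paper gives sexes by group, with fewer males and more females with prednisolone than in the other groups, but not within pools.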
